A study of Rattus norvegicus with 10 samples.

Results

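The mildest diet of a calorie restriction (CR) experiment, a reduction of daily food by 5%, was set against full feeding in the gastrocnemius of rats, a muscle of the calf built largely from fast fibres. The comparison used 4 of the 10 arrays of the series, the control and 5% CR arrays of 1 week and those of 1 month, chosen by the titles and restriction labels of the arrays. All rats were male Wistar, were 6 weeks old when restriction began, were housed singly on a powdered diet and were fasted for 16 hours before the muscle was taken, so control rats were fasted too. Control rats received the whole recorded daily intake and 5% CR rats that intake less 5%, for 1 week or for 1 month; the other 6 arrays held 10%, 20% and 30% CR at both durations. RNA of 5 rats was pooled for each array, so each group was 1 pool on 1 array, and neither the spread between rats nor that between arrays of a group was measured. The hour of collection is not given in the sources used here, and in a whole muscle a change in cell makeup and a change in RNA per cell cannot be told apart.

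Restricted feeding is known to reach muscle by several routes. The circadian clock of each cell is a loop in which BMAL1 and CLOCK switch on the PER, CRY and REV-ERB repressors, which then switch BMAL1 and CLOCK activity off again, and meal timing sets the phase of this loop outside the brain. Growth hormone acts through the transcription factor STAT5, which switches on its own brakes, among them Cish, while insulin and IGF signalling through PI3 kinase rises with food and falls with fasting. Fasted muscle burns more fat and spares glucose.

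Labels of the pair of 1-week arrays disagreed with themselves. The title and the restriction label of each array gave its group, but the second line of the description called the 1-week control array restricted and the 1-week 5% CR array fully fed. Groups follow the titles here. An exchange of these arrays turns the sign of every 1-week log2 ratio of 5% CR to control below. It also sets the 10%, 20% and 30% CR arrays of 1 week against another control. Probe sets were chosen without the disputed arrays and then read on them, which does not settle the groups. For 50 of them, the 10%, 20% and 30% CR arrays at 1 month all lay at least 1 log2 unit above the 1-month control. For 40 others they all lay at least 1 below it. On the 1-week arrays, the 50 had a median log2 difference from the mean of the 1-week 10% to 30% CR arrays of −0.44 on the control and −0.37 on the 5% CR array, and the 40 had 1.08 on the control and 0.55 on the 5% CR array. The median 1-week log2 ratio of 5% CR to control was 0.29 over the 50, with 34 of them higher at 5% CR, and −0.55 over the 40, with 30 lower.

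Values were MAS5 signals, a linear brightness per probe set, and each value below is either a signal or the log2 ratio of the 5% CR signal to the control signal of the same duration. Of the probe sets, 15521 passed a filter on mean signal, and 9170 genes were read through their brightest probe set. The trimmed mean signal was 100.1 and 100.3 on the 1-week control and 5% CR arrays and 86.6 and 86.7 on the 1-month pair. Among the 311 brightest probe sets the median log2 ratio was 0.02 at 1 week and −0.31 at 1 month, and under quantile normalization −0.01 at both. The highest signal was 13275 on the 1-month control and 8382 on the 1-month 5% CR array, and the mean hybridization spike signal was 2038 and 1122. The tissue label was borne out by the 8 markers of skeletal muscle fibres, such as Acta1 and Ckm, whose mean log2 signal was 12.11 to 12.58 on the 4 arrays.

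A probe set was counted as moving alike when both log2 ratios had the same sign and a size of at least 0.5, a factor of 1.41. There were 227 probe sets higher in both (1.46% of 15521) and 162 lower in both (1.04%), 389 in all. In opposite directions there were 343, 273 higher at 1 week and lower at 1 month (1.76%) and 70 the other way (0.451%). Nearly as many probe sets moved apart as moved alike. Over all 15521, the ratios of 1 week and 1 month, which share no array, had a Pearson correlation of 0.03 and a Spearman correlation of 0.000859, and 49.3% had the same sign; the points share arrays and a brightness range, so no p is given. Among the 3881 dimmest of these probe sets, 209 moved alike and 252 apart, and among the 3880 brightest 41 and 9.

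To give an error, log2 signals of all 10 arrays were fitted in limma with level of restriction and duration, and 5% was contrasted with control. The standard error (SE) of this fit measures how far differences between levels disagreed between the durations, over 4 residual degrees of freedom, and not the spread of replicate pools. At a Benjamini-Hochberg adjusted p of 0.05, 28 probe sets rose (0.18%) and 14 fell (0.0902%). All 42 had both ratios of the same sign and at least 0.5 in size. The fit favours this, because disagreement between the durations enters its error, so it is no separate support for the calls. At an unadjusted p under 0.05 there were 1282, where 776 are given by chance if no probe set changed. That figure takes the error of the fit for the spread of replicate pools, which was not measured, so the excess has no clear meaning. Of the 42, 29 carried a single gene name, and these named 23 genes. The count was 0 in limma without the 1-week control array (1380 at an unadjusted p under 0.05), 5 without the 1-month 5% CR array, and 0 with the 1-week arrays exchanged (1127 at an unadjusted p under 0.05) or without a variance trend (1185), so the calls below depend on these arrays and settings. Without the 1-week control array, mean log2 ratios were 2.10 for Per2 (2.20 with it) and 2.06 for Dbp (2.14). They were 2.06 for Zfp503 (1.91) and −1.99 for Cish (−2.35). These genes were picked for large ratios at both durations, so a similar size without 1 array is no separate support. Some other named genes shifted more, such as Nckap5l at 1.24 (1.70 with it) and Nr4a3 at −2.60 (−1.88). The variance trend does not enter these sizes.

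**Figure D1:**
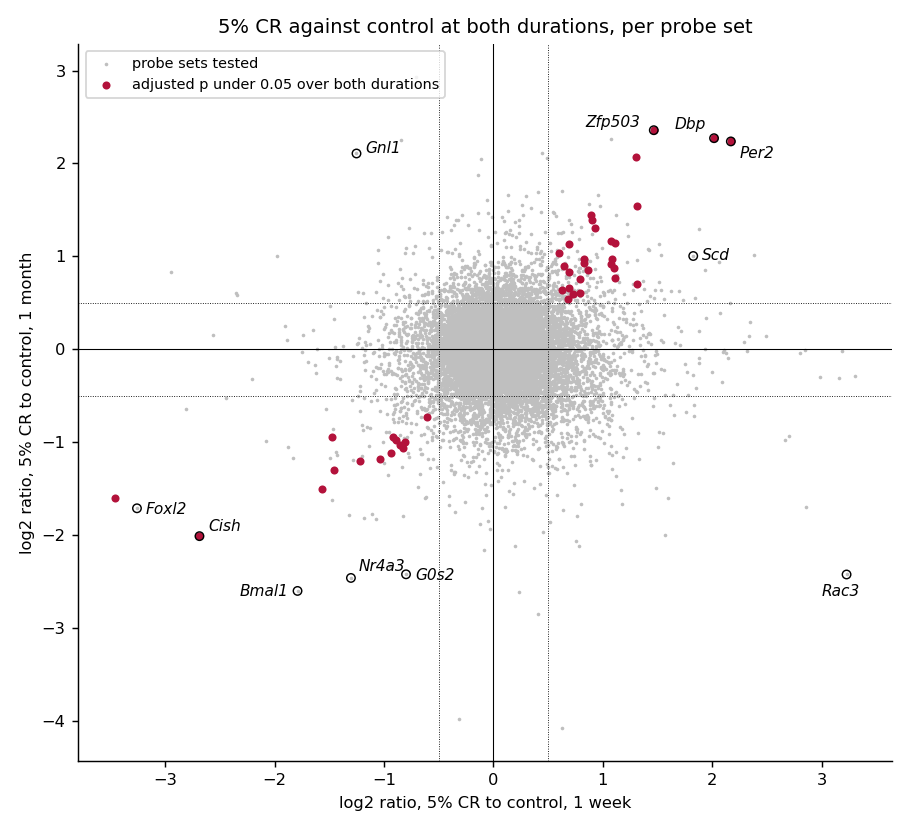
Log2 ratio of 5% CR to control at 1 month (vertical axis) against that at 1 week (horizontal axis) for 15521 probe sets (grey points); red points are the 42 probe sets with an adjusted p under 0.05 in limma, dotted lines mark 0.5 in size, and circles mark named genes. The cloud shows no slope (Pearson correlation 0.03). The 42 lie in the upper right (28) and lower left (14) corners, where the fit favours calls. Per2 and Dbp are at upper right, Cish at lower left and Rac3 and Gnl1 in the opposite corners.

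Clock genes had the largest rises. Per2, a repressor of the loop, had signals of 37.1 on the 1-week control and 167 on the 1-week 5% CR array, and of 42 and 198 at 1 month. Dbp, a D-box factor that carries clock time to output genes, had signals of 83.7 and 339 at 1 week and 58.6 and 283 at 1 month. Both 5% CR arrays lay above both controls for each gene. In limma Per2 (probe set 1368303) rose 4.61-fold (log2 2.20 ± 0.24, SE, adjusted p = 0.00687) and Dbp (probe set 1387874) rose 4.42-fold (2.14 ± 0.26, adjusted p = 0.0123).

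Promoters of the clock pair and of Cish are shown. Among probe sets that passed in limma, these genes had the largest rises and the largest fall. Each line is the 250 bases before the start site, from RefSeq on build GRCr8, read 5′ to 3′ on the gene's own strand, with motif matches in capitals.
Per2 (chr9:99496994-99497243, minus strand): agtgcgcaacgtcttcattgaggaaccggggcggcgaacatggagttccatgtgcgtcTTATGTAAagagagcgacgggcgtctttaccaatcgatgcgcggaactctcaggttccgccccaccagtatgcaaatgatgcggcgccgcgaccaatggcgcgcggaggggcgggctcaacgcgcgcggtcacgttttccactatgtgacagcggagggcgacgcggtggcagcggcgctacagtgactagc
Dbp (chr1:105312006-105312255, plus strand): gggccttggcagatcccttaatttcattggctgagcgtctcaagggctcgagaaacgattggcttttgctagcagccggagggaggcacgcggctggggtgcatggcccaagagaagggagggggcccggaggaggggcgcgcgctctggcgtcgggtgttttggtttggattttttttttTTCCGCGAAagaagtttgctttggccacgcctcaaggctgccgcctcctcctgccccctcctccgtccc
Cish (chr8:116850719-116850968, plus strand): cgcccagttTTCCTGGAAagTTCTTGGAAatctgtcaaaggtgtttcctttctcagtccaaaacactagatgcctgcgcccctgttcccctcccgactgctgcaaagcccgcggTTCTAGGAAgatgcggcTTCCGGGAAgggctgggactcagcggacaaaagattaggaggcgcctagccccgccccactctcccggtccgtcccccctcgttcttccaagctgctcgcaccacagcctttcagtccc

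Motifs were searched on both strands from 250 bases before to 50 after the start site, and no matches overlapped. The Per2 window held 1 D-box, the site of Dbp and its relatives (TTATGTAA or TTACGTAA), at −192 to −185, a motif found in 1.01% of 33469 rat promoters of that length. The Cish window held 4 GAS elements, the type of site that STAT5 binds (TTCNNNGAA), of which the farthest began at −241 and the nearest at −119, and the Dbp window held 1 at −69 to −61; 8.87% of promoters held at least 1. The E-box CACGTG, a site of BMAL1 and CLOCK, was in none of the 3 windows and in 6.42% of promoters. Only this exact sequence was searched, and variants of it or sites outside the windows were not looked for. The hexamer AGGTCA, bound by many nuclear receptors, stood 1 time in the Cish window, after the start site, and in 16.2% of promoters. These are letter matches and were not tested for binding.

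In the PER, CRY and D-box arm of the clock, 12 genes were measured, of which 5 were at least 0.5 higher at both durations (1.26% of all 9170 genes) and 1 lower (0.905%). In limma 4 rose (0.174% of genes), 1 fell (0.0436%) and 7 did not pass. The list median was 0.53 at 1 week and 0.66 at 1 month, beside 0.01 and −0.01 over all genes. Bhlhe41, a repressor of BMAL1 and CLOCK, had signals of 625 and 1136 at 1 week and 506 and 916 at 1 month and rose by 0.86 ± 0.11 (adjusted p = 0.0128). Nr1d2, the repressor REV-ERBβ, had signals of 711 and 1110 at 1 week and 537 and 1001 at 1 month and rose by 0.77 ± 0.14 (adjusted p = 0.0465), and a second probe set by 0.82. Cry1, a repressor that peaks later than the PER genes, was the member of its list that fell, with signals of 209 and 109 at 1 week and 209 and 96.5 at 1 month (log2 −1.02 ± 0.15, adjusted p = 0.0206).

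Several members of that arm did not pass. Per3 had log2 ratios of 0.86 and 0.96 at signals of only 10.2 to 23.3 on the 4 arrays, and Tef, a D-box factor like Dbp, had ratios of 0.41 and 0.81. The repressor Cry2 had ratios of 0.29 and 0.42 and the D-box factor Hlf −0.25 and 0.03. Per1 moved apart, with signals of 47.6 and 33.6 at 1 week and 50.2 and 71.9 at 1 month. The PER genes thus had no common pattern at 5% CR.

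In the BMAL1 arm, 4 genes were measured and 0 passed in limma. At both durations 2 were at least 0.5 lower, beside 0.905% of all 9170 genes. Bmal1 itself had signals of 122 and 35.2 at 1 week and 133 and 22 at 1 month (log2 −1.79 and −2.60, adjusted p = 0.165). Nfil3, a repressor that competes with Dbp for the D-box, had signals of 179.9 and 72 at 1 week and 241 and 70 at 1 month (adjusted p = 0.0919). Both 5% CR arrays lay below both controls for both genes. The mean log2 ratio was −2.19 ± 0.51 for Bmal1 and −1.55 ± 0.32 for Nfil3. Clock had log2 ratios of −0.39 and −0.56, and Rora, an activator of Bmal1, 0.25 and 0.55. The medians of the arm were −0.86 and −1.17.

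Usp2, which removes ubiquitin from proteins and is known as a rhythmic gene, stood outside both lists. Its signals were 442 and 787 at 1 week and 479 and 912 at 1 month, and it rose by 0.88 ± 0.15 (adjusted p = 0.0465). It and the other called genes outside the lists were taken from the 42 probe sets after their values were seen.

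**Figure D2:**
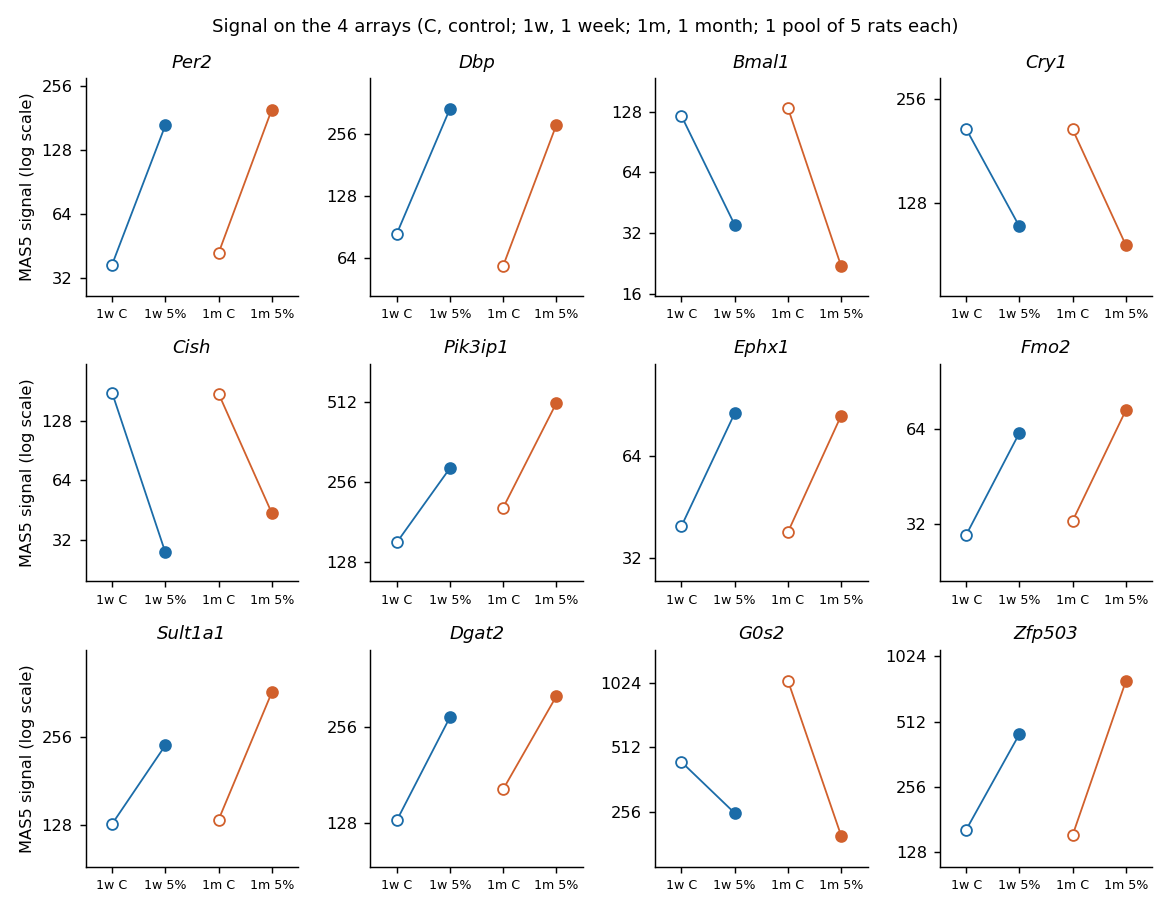
MAS5 signal on a log scale (vertical axis) on the 4 arrays (horizontal axis; C, control; 1w, 1 week; 1m, 1 month) for 12 genes, 1 panel each with its own range; open points are controls, filled points 5% CR, and lines join arrays of the same duration. All 12 genes are ones that moved alike, so both lines run the same way in every panel by choice of genes. Per2 goes from 37.1 to 167 at 1 week and from 42 to 198 at 1 month. G0s2 has unequal controls, 437.5 and 1055.

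Growth hormone feedback gave a single change in a list of 8. Cish, the STAT5 target that blocks the growth hormone receptor, had signals of 178 and 27.6 at 1 week and 176 and 43.7 at 1 month on its brightest probe set (1378586). It fell 5.09-fold (log2 −2.35 ± 0.37, adjusted p = 0.0272 in limma), and on its other probe set, at signals of 116 and 10.6 at 1 week and 101.5 and 33.5 at 1 month, it fell 5.76-fold. Socs2, the next known STAT5 target of this kind, had log2 ratios of −0.02 and −0.50, and Igf1, a growth factor under growth hormone control, −0.29 and −0.76, and neither passed. The list had 0 rises, 1 fall and 7 genes that did not pass, beside 0.174% of all genes rising and 0.0436% falling. Its medians were −0.13 and −0.22.

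Of 16 genes of IGF and insulin signalling, 1 rose (0.174% of all genes did) and 15 did not pass, and the medians were 0.01 and 0.11. The rise was that of Pik3ip1, an inhibitor of PI3 kinase, with signals of 151 and 288 at 1 week and 205 and 507 at 1 month (2.17-fold, log2 1.12 ± 0.15, adjusted p = 0.0165). Igfbp5, the main IGF binding protein of muscle, had log2 ratios of −0.58 at both durations on its brightest probe set (adjusted p = 0.28), and its 4 other probe sets gave −0.81 to −0.49 at 1 week and −0.79 to 0.02 at 1 month. Of 23 genes of FOXO, atrophy and autophagy, which fasting is known to raise, 0 passed. Of these, 0 moved alike by 0.5 in either direction, beside 1.26% of all genes higher and 0.905% lower. Foxo3 was at 0.28 and 0.45, Gabarapl1, which acts in autophagosomes, at 0.41 and 0.40, and the atrophy ubiquitin ligases Fbxo32 and Trim63 at −0.18 and 0.10 and at −0.06 and −0.13.

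Enzymes that modify foreign compounds were among the groups with several members higher at both durations. Of 26 xenobiotic and antioxidant enzymes, 6 were at least 0.5 higher at both durations and 0 lower, beside 1.26% and 0.905% of all genes; 3 rose in limma, 0 fell and 23 did not pass. Sult1a1, a sulfotransferase, had signals of 129 and 239.6 at 1 week and 134 and 363 at 1 month and rose 2.24-fold (log2 1.17 ± 0.16, adjusted p = 0.0152). Ephx1, a microsomal epoxide hydrolase, had signals of 39.7 and 85.9 at 1 week and 38.1 and 84.5 at 1 month, nearly the same at both durations, and rose 2.19-fold (adjusted p = 0.0282). Fmo2, a flavin monooxygenase, had signals of 29.5 and 62 at 1 week and 32.7 and 73.1 at 1 month and rose 2.17-fold (adjusted p = 0.0332), though its 2 other probe sets, at ratios of 0.34 and 0.78 and of 1.46 and 0.55, did not pass.

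The other 3 of the 6 were Fmo1, a flavin monooxygenase (0.65 and 0.90, adjusted p = 0.159), Mgst1, a membrane glutathione transferase (0.79 and 0.83), and Akr1c14, which reduces steroids (0.72 and 1.26). The antioxidant members did not share the pattern: Sod1 was at −0.13 and −0.17, Cat at 0.37 and 0.00 and Gpx1 at 0.48 and −0.37. The list as a whole had medians of 0.08 and 0.14, and the 1-week median was −0.004 under quantile normalization.

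Genes of fat handling were mixed. G0s2, the inhibitor of the fat lipase Pnpla2, had signals of 437.5 and 251.6 at 1 week and 1055 and 197 at 1 month (log2 −0.80 and −2.42, adjusted p = 0.328 in limma), and its controls differed more than its 5% CR arrays did. Pnpla2 was at 0.31 and 0.60. Neither passed, nor did any other of the 11 genes of lipolysis and the lipid droplet, of which 1, G0s2, moved alike. Over all genes, 0.905% moved alike downward and 1.26% upward. Of 21 genes of fatty acid uptake and beta-oxidation, 0 passed and 1 moved alike, the fatty acid carrier Cd36, at signals of 555 and 871 at 1 week and 709.7 and 1006 at 1 month.

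In fatty acid and triglyceride synthesis, 17 genes, 1 rose (0.174% of all genes did) and 16 did not pass. Dgat2, which adds the last fatty acid to triglyceride, had signals of 130.4 and 276 at 1 week and 164 and 321 at 1 month and rose 2.04-fold (log2 1.03 ± 0.15, adjusted p = 0.0216), and its other probe set rose by 0.66. Scd, a fatty acid desaturase, was higher at both durations but dim, with signals of 12.8 and 45.4 at 1 week and 17.9 and 35.9 at 1 month (adjusted p = 0.564). Fasn, the fatty acid synthase, was at −0.59 and −0.61, and Srebf1, a regulator of this pathway, at −0.18 and −1.21, so members of the list did not share a direction. Mid1ip1, which activates acetyl-CoA carboxylase, was on no list and rose by 0.64 ± 0.11 (adjusted p = 0.0359), with signals of 208 and 322 at 1 week and 245 and 382 at 1 month.

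Among genes of the response to fasting and of fuel use, at most 1 gene in each of the 4 lists below moved alike, beside 1.26% of all genes higher and 0.905% lower. Of 11 genes of the fasting fuel switch, 0 passed and 1 moved alike, the mitochondrial coactivator Ppargc1a (0.58 and 0.61). Its other probe sets, at 0.82 and 0.85 and at 0.87 and 0.36, did not pass either. Pdk4, the kinase that shuts pyruvate out of mitochondria, was at 0.22 and 0.15, and Angptl4, an inhibitor of lipoprotein lipase, at 0.20 and 0.28. Of 18 genes of glucose uptake and glycolysis, 0 passed and 1 moved alike, the glucose transporter Slc2a1 (−1.24 and −0.50, at signals of 16.2 to 38.2), with list medians of 0.04 and −0.45. Of 16 genes of cholesterol synthesis 0 passed or moved alike, with medians of −0.29 and −0.08. Of 14 glucocorticoid responsive genes, 0 passed and 0 moved alike, with medians of −0.26 and −0.09. By any amount, 6 of these genes were lower and 3 higher at both durations, beside 24.4% of all genes lower and 24.4% higher. Errfi1 was at −0.80 and −0.36 and Fkbp5 at 0.17 and 0.66. Control rats had been fasted for the same 16 hours.

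Of stress genes and those of NAD salvage, at most 1 in each list moved alike. Over all genes 1.26% were higher in this way and 0.905% lower, and by any amount 24.4% were higher and 24.4% lower at both durations. Herpud1, a protein of the endoplasmic reticulum stress response, was at 0.54 and 0.59 with signals of 305 and 443 at 1 week and 544 and 820.1 at 1 month (adjusted p = 0.343), and it was the only one of 19 genes of that list to move alike. Of 14 immediate-early and NR4A genes 1 moved alike, the nuclear receptor Nr4a3 (−1.30 and −2.46, adjusted p = 0.395), and Fos was at −0.26 and −1.64; the medians of that list were −0.14 and −0.52, with 6 genes lower and 2 higher at both durations by any amount. Of 18 heat shock proteins and chaperones 0 moved alike, with medians of −0.03 and −0.31 and with 8 genes lower and 1 higher at both durations by any amount. Of 9 genes of NAD salvage 1 did, the nicotinamide methyltransferase Nnmt (0.63 and 1.70). None of these 4 lists had a gene that passed.

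**Figure D3:**
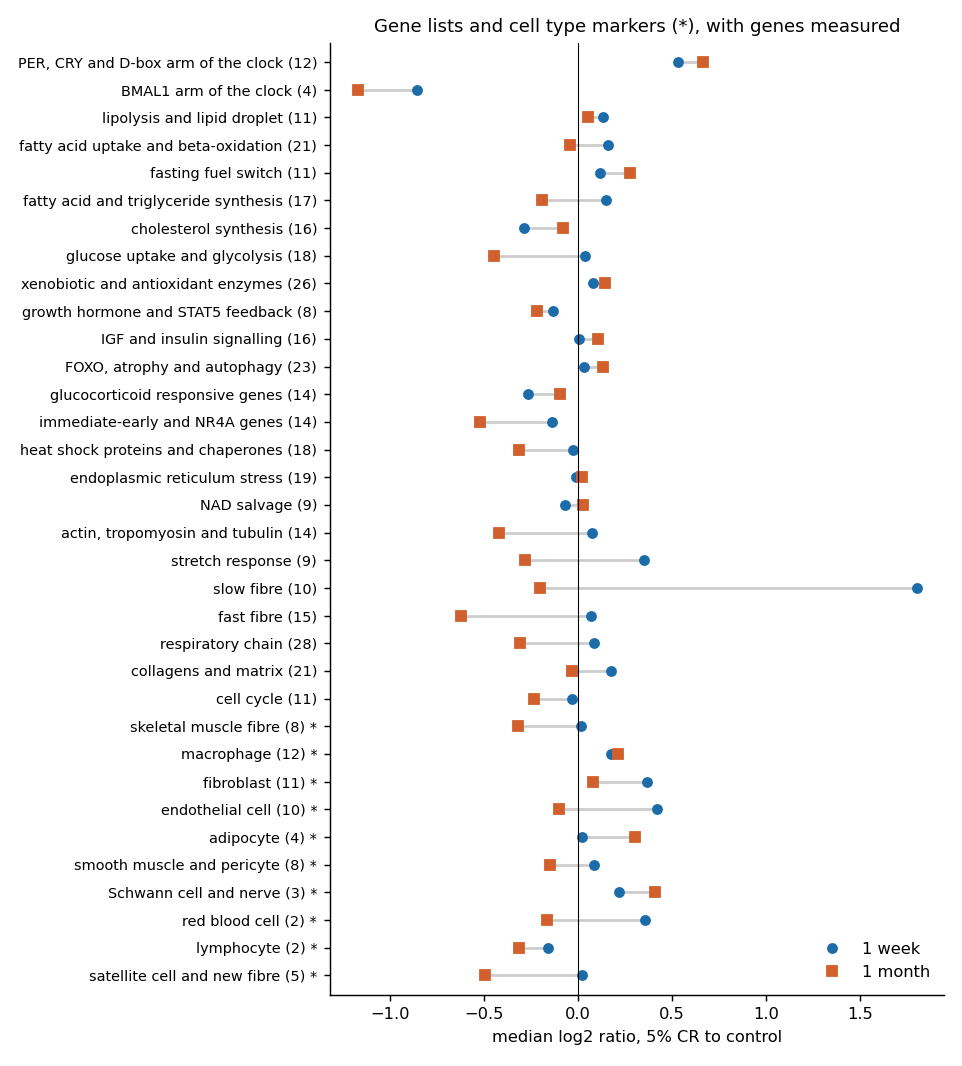
Median log2 ratio of 5% CR to control (horizontal axis) at 1 week (blue circles) and at 1 month (orange squares) for 24 gene lists and 10 lists of cell type markers (asterisk), with the number of genes measured. The arms of the clock lie away from 0 on the same side at both durations (0.53 and 0.66, −0.86 and −1.17), and slow fibre genes lie far apart (1.80 and −0.20).

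Other called genes had no list. Zfp503, a zinc finger repressor, had signals of 162 and 448 at 1 week and 153 and 786 at 1 month and rose 3.76-fold (log2 1.91 ± 0.21, adjusted p = 0.00687 in limma), and a second probe set rose 3.22-fold. Slc38a3, a glutamine transporter, rose by 1.01, with signals of 38.6 and 96 at 1 week and 56.4 and 91.7 at 1 month. Xdh, the xanthine oxidase, rose by 0.77, and Gda, the guanine deaminase, rose by 0.68 on a dimmer probe set, while the brightest Gda probe set was at 0.41 and 0.39 and did not pass. The receptor Adgrf5 rose by 0.70 and the phosphatase Cdc14a by 0.76.

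The falls outside the lists were fewer. Dyrk2, a protein kinase, fell by 0.94 to 1.11 on 3 probe sets, the brightest of these at signals of 894 and 503 at 1 week and 491 and 235 at 1 month; the probe set with its highest mean over the 10 arrays was at −0.46 and −1.42 and did not pass. Maf, a transcription factor, fell by 1.21 on a probe set with signals of 167 and 71.7 at 1 week and 156 and 67.6 at 1 month, and its brightest probe set was at −0.84 and −1.27 (adjusted p = 0.0918). Pxdc1 fell by 1.21 and Pwwp3b by 0.95. Among genes that moved alike without passing, Mybph, a myosin binding protein of the thick filament, had signals of 2162 and 805 at 1 week and 787 and 357 at 1 month (adjusted p = 0.0624), and Ppl, the junction protein periplakin, 8.1 and 29.8 and 13.9 and 34 (adjusted p = 0.0752).

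Genes of the slow fibre, the aerobic fibre type of posture, did not move alike. Of 10 measured, 0 moved alike and 0 passed in limma, beside 1.26% of all genes moving alike upward and 0.905% downward. By 0.5, 2 were higher at 1 week and lower at 1 month, as were 133 of all 9170 genes. Myh7, the slow myosin, had signals of 464 and 2315 at 1 week and 1423 and 1399.9 at 1 month, and Tnni1, the slow troponin I, 263 and 1331 and 797 and 879. The list median was 1.80 at 1 week and −0.20 at 1 month. The control of 1 week was the lowest of all 10 arrays for this list, with a mean log2 signal of 8.27, beside 9.92 on the 1-week 5% CR array and 9.47 and 9.25 on the 1-month pair.

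Fast fibre genes, the bulk of this muscle, were level at 1 week and lower at 1 month. The median of 15 genes was 0.07 and −0.62, and 0 passed or moved alike by 0.5. Over all genes 1.26% moved alike upward and 0.905% downward. Tnnt3, the fast troponin T, was at 0.04 and −0.63. Respiratory chain genes (28, medians 0.09 and −0.31) and glycolytic genes (18, medians 0.04 and −0.45) behaved in the same way, and so did the brightest probe sets of any kind, at −0.31 at 1 month. Under quantile normalization the 1-month medians were −0.02 for fast fibre, −0.06 for the respiratory chain and 0.02 for glycolysis, so a lower level of these genes at 1 month was not seen on that scale.

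**Figure D4:**
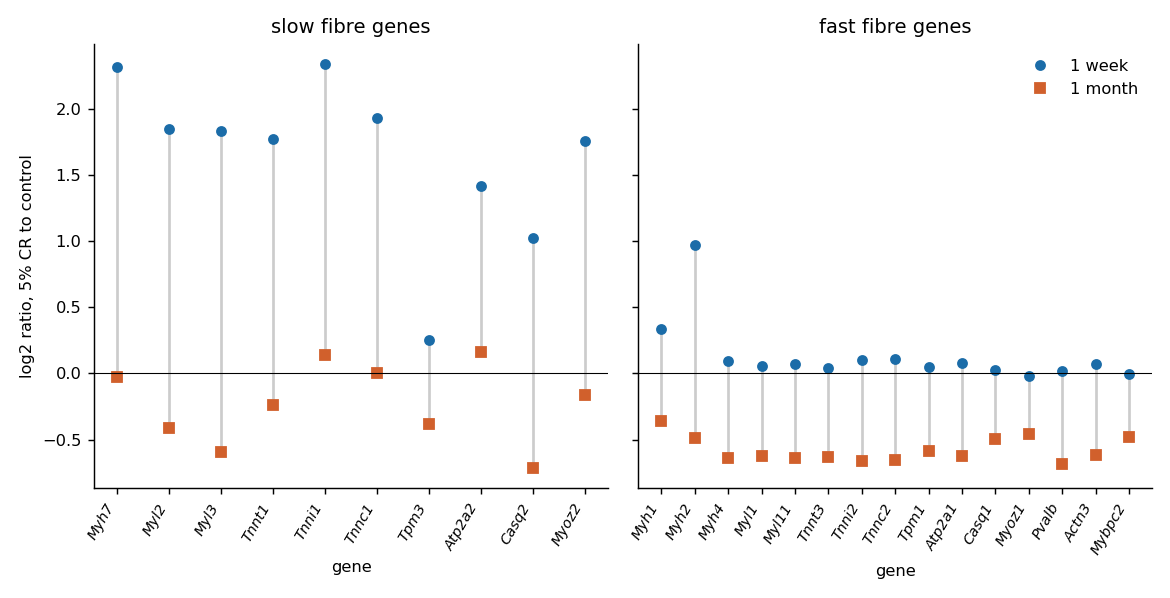
Log2 ratio of 5% CR to control (vertical axis) at 1 week (blue circles) and 1 month (orange squares) for each measured gene (horizontal axis) of the slow fibre list (left) and the fast fibre list (right), with 1 array per group and no error bars. Slow fibre genes lie up to 2.34 above 0 at 1 week and near or below 0 at 1 month, and fast fibre genes lie near 0 at 1 week, apart from Myh2 (0.97), and near −0.62 at 1 month.

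Markers of other cell types were higher at 1 week for several lists. Endothelial markers had medians of 0.42 and −0.10 over 10 genes, with summed signals of 1934 and 2263 at 1 week and 1549 and 1463 at 1 month. Fibroblast markers had medians of 0.37 and 0.08 over 11 genes, with summed signals of 7407 and 8854 at 1 week and 6837 and 6819 at 1 month. Macrophage markers had medians of 0.18 and 0.21 over 12 genes, with summed signals of 1003 and 1168 at 1 week and 909 and 963 at 1 month. Of these markers 1 moved alike, beside 1.26% of all genes higher at both durations. It was the scavenger receptor Cd163 (1.56 and 0.54, signals of 13.3 to 39.2). Adipocyte markers had medians of 0.02 and 0.30 over the 4 of 10 measured, with Adipoq at 0.02 and 0.35. No marker of the 10 lists passed in limma, and the part of these cells in the changes of the enzymes and clock genes was not tested.

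Where 5% CR stood among the levels was read from the ratios of all levels to the same control arrays, which the levels of a duration share. Probe sets that moved alike numbered 389 at 5% CR, 440 at 10% (1.49% of 15521 higher and 1.34% lower), 602 at 20% (2.01% and 1.87%) and 756 at 30% (2.58% and 2.29%). Per2 was at 2.17 and 2.24 at 5% CR, 1.97 and 2.44 at 10%, 2.97 and 2.40 at 20% and 2.96 and 2.19 at 30%. Dbp was at 2.02 and 2.27 at 5% CR, 1.99 and 2.36 at 10%, 2.21 and 2.03 at 20% and 1.97 and 0.90 at 30%. Cish was at −2.69 and −2.01 at 5% CR, −2.45 and −1.85 at 10%, −2.58 and −0.80 at 20% and −2.14 and −2.32 at 30%. At 1 month Dbp was closest to control at 30% CR and Cish at 20%, while at 1 week Per2 was closer to control at 5% and 10% than at 20% and 30%. Sult1a1 was at 0.89 and 1.44 at 5% CR and at 1.94 and 1.88 at 30%, and Herpud1 at 0.54 and 0.59 and at 1.80 and 1.23.

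A contrast of 5% CR with the mean of 10%, 20% and 30% CR, which no control array enters, gave 1 probe set that passed (0.00644%), that of Nr1d1. At an unadjusted p under 0.05 there were 711, where 776 are given by chance if no probe set changed, under the same assumption on the error. Nr1d1 is the repressor REV-ERBα of the clock. Its signals at 1 week were 338 on the control, 604 at 5% CR, 422 at 10%, 138 at 20% and 91.6 at 30%, and at 1 month 233, 278, 231, 98.7 and 57.7. It was above control at 5% CR, by 0.84 and 0.26, and below it at 20% and 30% CR, and 5% CR exceeded the mean of the higher levels by 1.57 ± 0.12 (adjusted p = 0.000781 in limma). Without a variance trend the same difference had an adjusted p of 0.207, and with the 1-week control and 5% CR arrays exchanged it was 1.15 with an adjusted p of 0.148. For Per2, Dgat2 and Sult1a1 this difference was −0.28 ± 0.20, −0.28 ± 0.13 and −0.32 ± 0.13, and none passed.

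**Figure D5:**
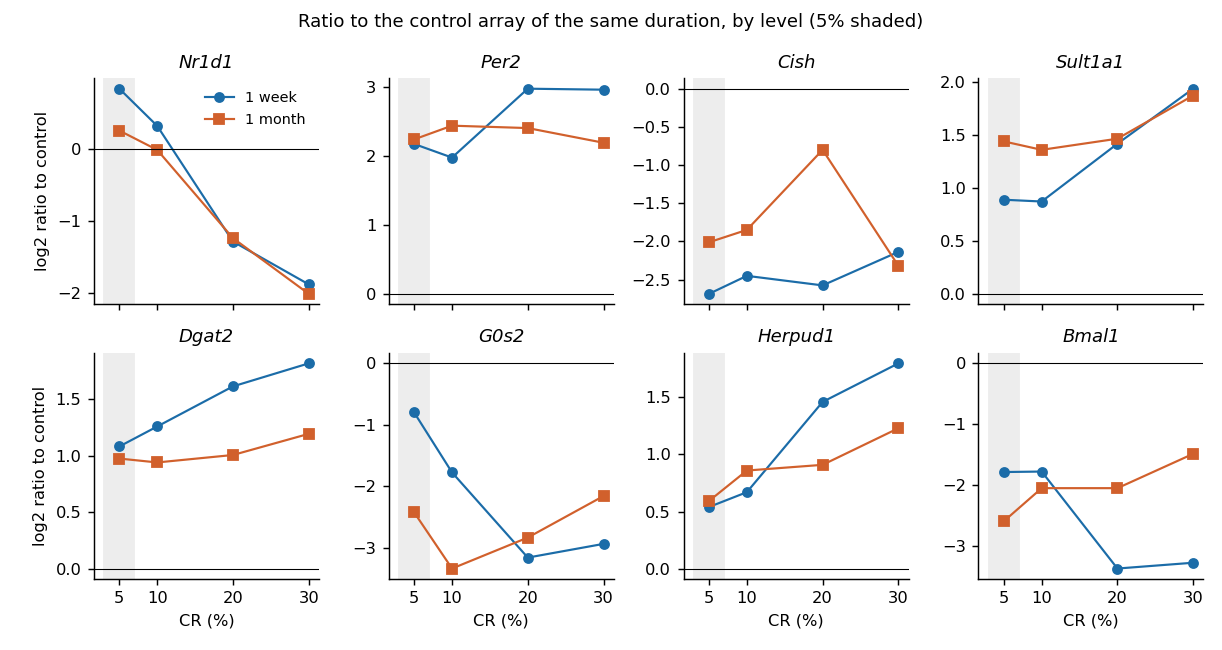
For 8 genes, the log2 ratio of each restricted array to its control (vertical axis, a range of its own in each panel) is plotted over the percent of food withheld (horizontal axis), with blue circles for 1 week and orange squares for 1 month, 1 array per point and 5% shaded. Nr1d1 passes from above 0 at 5% CR (0.84 and 0.26) to −1.88 and −2.01 at 30%, while Per2 is already at 2.17 and 2.24 at 5%.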

How the data were processed

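The authors pooled RNA of 5 rats per group and hybridized each pool to 1 Affymetrix array, and the deposited values are MAS5 signal intensities, scaled array by array. From these, log2 was taken after raising any signal under 0.1 to that floor, array controls were removed, and 15521 of 31099 probe sets, those at or above the 50th percentile of mean log2 signal over the 10 arrays (a signal of 17.8), were kept. The platform annotation gave 1 gene for 20832 probe sets, several for 436 and none for 9831, and 20764 matched a RefSeq gene table. Limma 3.58.1 in R 4.3.3 (lmFit, eBayes with trend) fitted level of restriction (5 levels) and duration, with Benjamini-Hochberg adjustment over all probe sets kept. The 4 arrays alone leave 1 residual degree of freedom. No detection calls were used, depth has no meaning for arrays, and 1 array per group limits the precision. Scripts were tested on simulated data.

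Named genes were the 12 highest and 12 lowest by the ratio nearer to 0 among genes of the same sign at both durations, 3 opposite in each direction, up to 6 in each direction that passed against 10% to 30% CR, up to 4 per gene list, and Per2, Dbp, Cish, G0s2 and Fmo1; the text describes the main ones. Members and lists were chosen with earlier results of these data known. Of 514 list entries, 425 were measured, 48 were below the filter and 41 had no probe set.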

Additional observations from a re-analysis of the deposited data

Results flagged for a closer look

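Differences between the durations are listed here where the 1-week and 1-month arrays moved opposite ways. Each compares 1 array pair with another, so no difference was tested. Rac3, a small GTPase, had the widest, with signals of 4.6 and 43.1 at 1 week and 23.6 and 4.4 at 1 month, and its 1-month log2 ratio minus its 1-week log2 ratio was −5.65. The same difference was −2.86 for Cenpm, a centromere protein, and −2.68 for Tpsb2, a mast cell tryptase. It was 3.36 for Gnl1, 2.17 for Nicol1 and 1.98 for Icoslg. Signals of these 6 genes were at most 70.2 on the 4 arrays.

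Over all genes the median was 0.01 at 1 week and −0.01 at 1 month, and 49.3% of probe sets had the same sign at both durations. Medians turned sign between the durations in 16 of 34 lists, among them fast fibre (0.07 and −0.62). Those with medians of at least 0.2 in size at both durations were the stretch response list (9 genes, 1-month minus 1-week median −0.63) and the slow fibre list (10 genes, −2.004). Stretch response genes Ankrd2 (2.10 and −0.03) and Csrp3 (1.82 and −0.28) had 1-week ratios like those of slow fibre genes. The 1-week control array, at 111.6 for Ankrd2 and 569.5 for Csrp3, was lower than the other 3 arrays of the comparison for both.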

How the results depend on the processing

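No paired analysis was possible because the labels carry no replicate numbers and each group has 1 array; arrays were matched by duration in the fit itself. The 389 probe sets that moved alike became 94 with log2 of signal plus 32, 3920 with no filter, 121 with a 70th percentile filter, 188 with 1 mean value per gene, 1586 at a smallest ratio of 0.25 and 40 at 1; with the 1-week arrays exchanged there were 343, 70 higher and 273 lower. The correlation of 0.0307 between durations was −0.00769 with no filter and −0.0307 with the arrays exchanged, and 0.0466 to 0.101 under quantile normalization, the offset, the 70th percentile filter and 1 value per gene. The 42 calls in limma became 21 with 1 value per gene, 0 with the arrays exchanged, 0 without a variance trend, 67 with the 4 arrays alone, and 0 to 48 when each array was left out in turn; the other settings gave 38 to 45, with 37 to 41 probe sets shared. Of the calls, 35 of 67 were among the 42 with the 4 arrays alone, 13 of 40 without the 1-month control, 15 of 30 without the 1-week 5% CR array and 3 of 5 without the 1-month 5% CR array. The lowest count came without the 1-week control. The single call against 10% to 30% CR became 0 without a trend (731 at an unadjusted p under 0.05 in limma) and 1 to 3 when each array was left out.

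Of the 10 named genes that passed, 0 passed with the exchange, without a trend or without the 1-week control (adjusted p = 0.0787 to 0.186), 1 without the 1-month 5% CR array, 4 without the 1-month control and 6 without the 1-week 5% CR array. With the exchange the mean log2 ratio turned negative for Ppl (−0.29), Letm2 (−0.0098), Gtf3c5 (−0.19), LOC100910189 (−0.17), Numbl (−0.18), Epb41l4a (−0.26), Nckap5l (−0.69), Nr1d1 (−0.29), Cd36 (−0.0736), Scd (−0.41), Dgat2 (−0.0535), Lss (−0.0302), Gabarapl1 (−0.00376), Atp2a2 (−0.62), Tnni1 (−1.10), Fn1 (−0.0499), Col5a2 (−0.0306) and Cdc20 (−0.20). It turned positive for Cish (0.34), Foxl2 (0.77), Slc16a9 (0.0241), Mybph (0.14), Cmtm8 (0.17), Sapcd1 (0.42), Trdmt1 (0.00902), Pcsk4 (0.55), Slc2a1 (0.37) and Errfi1 (0.22). Mybpc2 was 0.0233 under quantile normalization and Atp5po 0.0808 with the mean of its probe sets. The exchange reverses the 1-week ratios by construction; the cause of the other shifts was not tested.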

Other observations

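Lists of tissue structure and growth genes follow, beside 1.26% of all genes at least 0.5 higher at both durations and 0.905% lower. Of 21 genes of collagens and matrix, 0 moved alike by 0.5 and 0 passed in limma, with medians of 0.18 and −0.03; Fn1 was at 0.34 and 0.24. Of 11 cell cycle genes 0 moved alike, with medians of −0.03 and −0.23, and Cdkn1c, a brake on the cell cycle, was at −0.14 and −0.72. Actin, tropomyosin and tubulin genes (14) had medians of 0.07 and −0.42, and the 1-month median was −0.41 under quantile normalization; Tubb6 was at −0.25 and −1.01 and Vim at 0.22 and 0.31.

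Markers of satellite cells and new fibres (5 genes measured) had medians of 0.02 and −0.49, with Myod1 at −0.10 and −0.17 and Myog at −0.18 and −0.56. Markers of Schwann cells and nerve (3 genes) had medians of 0.22 and 0.41, and those of smooth muscle and pericytes (8 genes) 0.08 and −0.15. Red blood cell markers (2 genes) had medians of 0.36 and −0.16 and lymphocyte markers (2 genes) −0.16 and −0.31.

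Array quality measures differed within the pairs. The ratio of 3′ to 5′ probe sets of actin, a sign of RNA integrity, was 1.70 on the 1-week control and 1.52 on the 1-week 5% CR array, and 1.44 and 1.60 at 1 month. Poly-A spikes had a mean signal of 144 and 95.04 at 1 week and 184 and 145 at 1 month. The standard deviation of the log2 difference between the 1-week control and 5% CR arrays over 15521 probe sets was 0.396, and between the 5% and 10% CR arrays 0.338; at 1 month it was 0.388 and 0.294.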
